A study of Mus musculus with 15 samples.

Results

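A set of 9 genes that neuronal activity switches on rapidly was followed through 15 mouse cortex libraries: the zinc-finger transcription factors Egr1, Egr2, Egr3 and Egr4, the orphan nuclear receptors Nr4a1, Nr4a2 and Nr4a3, the synaptic protein gene Arc and the transcription factor gene Npas4. They were taken by name from the gene column of each table, where all 9 were present among 21878 rows, and all 9 were among the 12728 genes tested, those that reached 1 FPKM in 3 libraries or more. FPKM counts fragments per transcript length and sequencing depth, so levels can be compared between genes. The libraries came from prefrontal forebrain cortex of wild-type C57BL6/J mice (WT) and of conditional double knockout mice (DKO), whose targeted genes include Psen2, a catalytic subunit of gamma-secretase. The sources used here do not give the promoter that drives the recombination. For 3 months from the age of 8 months the mice drank plain water or water with 100 µg/ml nicotine, and they went through behaviour tests before the tissue was taken. WT had 4 libraries on each drink, and DKO had 4 on water and 3 on nicotine. Nothing in the labels ties a library to a mouse of its own, so p-values measure only how far these libraries spread, which may be technical.

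Synaptic activity raises calcium in neurons, and kinases and phosphatases that respond to it act on transcription factors such as CREB, SRF and MEF2, which start transcription of these genes within minutes without new protein synthesis. Most of the products are themselves transcription factors that set a later wave of genes, while Arc acts at the synapse, where it promotes removal of AMPA-type glutamate receptors. Npas4 is known for its preference for calcium signals over growth-factor signals and for its role in the balance of excitatory and inhibitory synapses.

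The sequences just before the transcription starts are shown because letters bound by the CREB, Egr, MEF2 and Nr4a families can be searched in them. A RefSeq table of the same build, GRCm38.p6, held an entry for 6 of the 9 genes (Egr2, Egr4, Nr4a1, Nr4a2, Nr4a3 and Npas4), each with 250 bases before and 50 bases after a start; where a gene had several starts the most upstream entry was used. Below are the 250 bases before the start for Nr4a1 (chr15:101266596-101266845, plus strand, intronic in GENCODE, as a longer transcript begins further upstream), Nr4a2 (chr2:57124004-57124253, minus strand, outside annotated genes) and Egr4 (chr6:85513590-85513839, minus strand, outside annotated genes), and a stretch of 30 bases for Npas4 (chr19:4990127-4990156, minus strand, within an exon of another Npas4 transcript). Capitals mark matches to the motifs named after the sequences.
Nr4a1: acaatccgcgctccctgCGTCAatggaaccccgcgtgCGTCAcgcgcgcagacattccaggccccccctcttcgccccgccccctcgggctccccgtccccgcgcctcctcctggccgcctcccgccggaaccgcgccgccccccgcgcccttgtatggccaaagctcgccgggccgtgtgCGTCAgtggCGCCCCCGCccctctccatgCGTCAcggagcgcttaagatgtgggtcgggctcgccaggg
Nr4a2: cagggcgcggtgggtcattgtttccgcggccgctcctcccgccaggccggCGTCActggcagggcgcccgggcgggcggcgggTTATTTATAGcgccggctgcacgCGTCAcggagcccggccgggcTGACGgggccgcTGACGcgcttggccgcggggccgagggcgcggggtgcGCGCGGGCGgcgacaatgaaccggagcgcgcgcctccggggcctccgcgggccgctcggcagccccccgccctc
Egr4: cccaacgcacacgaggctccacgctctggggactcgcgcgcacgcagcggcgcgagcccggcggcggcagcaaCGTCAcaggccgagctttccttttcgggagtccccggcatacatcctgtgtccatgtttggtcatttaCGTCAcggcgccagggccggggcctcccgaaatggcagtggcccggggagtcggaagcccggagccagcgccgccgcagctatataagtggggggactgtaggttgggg
Npas4: gttcgaCGTCAcgggaTGACGtcggaagtc

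The CRE half-site TGACG, which reads CGTCA on the other strand, was found in 5 of the 6 windows of 300 bases, against 20.9% of 27025 promoters. Nr4a1, Nr4a2 and Nr4a3 held 4 matches each, Egr4 and Npas4 2 each and Egr2 none. In Npas4 the matches begin at -179 and -169 from the start and face in opposite directions. The full CRE, TGACGTCA, which contains the half-site, was in none of the 6 windows and in 1.85% of all promoters. The Egr site GCGNGGGCG was in 2 windows, at -60 in Nr4a1 and -74 in Nr4a2, against 5.53% of all promoters. A MEF2 site (3.29% of all promoters) and the letters TATAAA of the TATA box (14.2%) matched in Nr4a2 alone. There TATAAA reads on the strand opposite to the gene, at -164 to -159, inside the MEF2 match at -167 to -158. The letters TATATAAG near the end of the 250 bases of Egr4 and Npas4 do not match TATAAA and were not searched for. The CArG box bound by SRF (1.59% of all promoters) and the NBRE AAAGGTCA bound by Nr4a proteins (1.46%) were in none of the 6. All motifs were searched on both strands. A match describes the letters, not binding, and the missing matches say only that these letters are not in these windows.

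**Figure D1:**
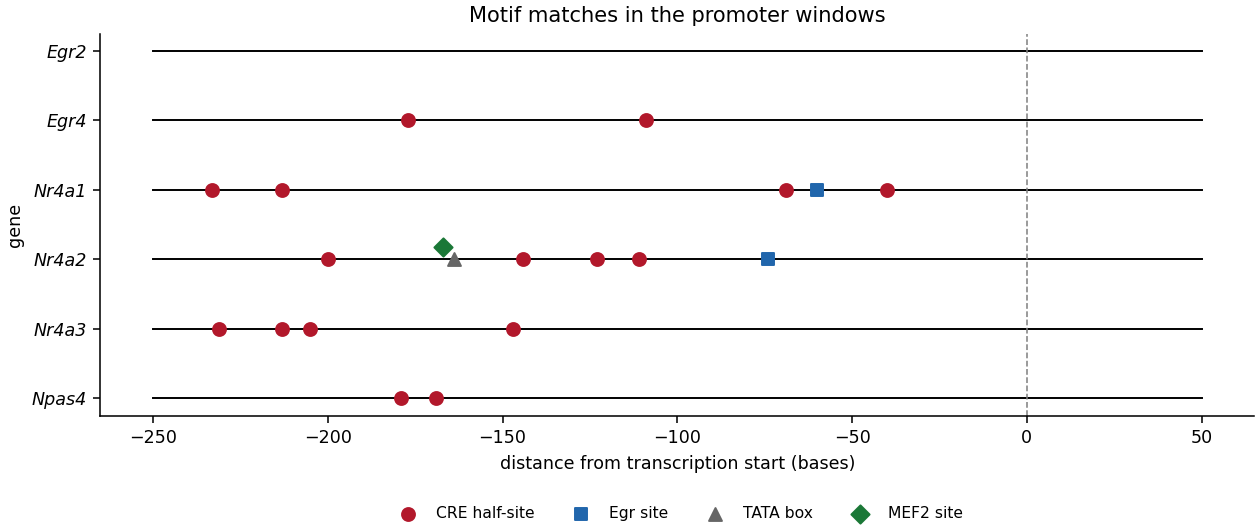
Motif matches in the 300-base windows of the 6 genes with a RefSeq entry, by distance in bases from the transcription start (x axis), one line per gene. CRE half-site matches lie on 5 of the 6 lines, and the line for Egr2 holds no match.

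Each library held 16334904 to 19469215 reads in genes, and the first principal component, which separated the genotypes, held 64% of the variance. Psen2 was at 5.44 to 7.14 FPKM in WT water, 5.71 to 7.05 in WT nicotine, 1.29 to 1.72 in DKO water and 1.36 to 1.76 in DKO nicotine. Excitatory neuron markers (14 genes) summed to 2550 to 2620 FPKM in WT water, 2620 to 2810 in WT nicotine, 2010 to 2170 in DKO water and 1970 to 2180 in DKO nicotine, with none at 0. The vesicular glutamate transporter gene Slc17a7, a defining marker of these neurons, was not called between genotypes on water. It was at 552 ± 19.7 FPKM with WT on water and 569 ± 15.1 with DKO on water (SD, n = 4 each, limma adjusted p = 0.306). Of the 14 markers 8 were called lower in DKO on water and none higher. The largest falls were Lamp5 at -0.93, Neurod6 at -0.69, Slc17a6 at -0.64 and Camk2a at -0.49 on the log2(FPKM + 1) scale. Beside Slc17a7, the markers not called were Neurod2 at -0.02, Foxp2 at -0.02, Cux2 at 0.04, Fezf2 at 0.08 and Bcl11b at 0.22. The sums weigh most on abundant markers, among them Nrgn (mean 1040 FPKM in WT water, 809 in DKO water) and Camk2a (725 and 517). Y-linked genes (4 genes, sum) were at 28.9 to 33.0 FPKM in WT water and 24.3 to 33.0 in DKO water, but at 0.0909 to 0.144 in all WT nicotine libraries and at 35.9, 0.233 and 36.6 in the DKO nicotine libraries. Sex is not among the labels, and in WT it cannot be told apart from nicotine.

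The comparison of DKO with WT mice on water shows the knockout without nicotine. All 9 genes were lower in DKO cortex, with DKO means from 23.2% of the WT mean for Egr2 and 24.0% for Arc to 77.8% for Egr3. In limma, 9 of 9 passed an adjusted p under 0.05 as lower, where 12.4% of all 12728 genes did so. The set was chosen with earlier results of these data known, so this share is a description and not a test of the set. The median change of the 9 was -0.85 on the log2(FPKM + 1) scale, beside 0.05 for all genes tested. In 8 of the 9 the highest DKO library was below the lowest WT library, a pattern seen for 12.5% of all genes, and Nr4a2 was the exception. All log2 changes here are on the log2(FPKM + 1) scale, which understates the change of genes with few FPKM. Rescaling by the median of ratios kept 9 of 9 calls, while over all genes it moved the split from 3252 higher and 1584 lower to 2430 higher and 2341 lower.

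**Figure D2:**
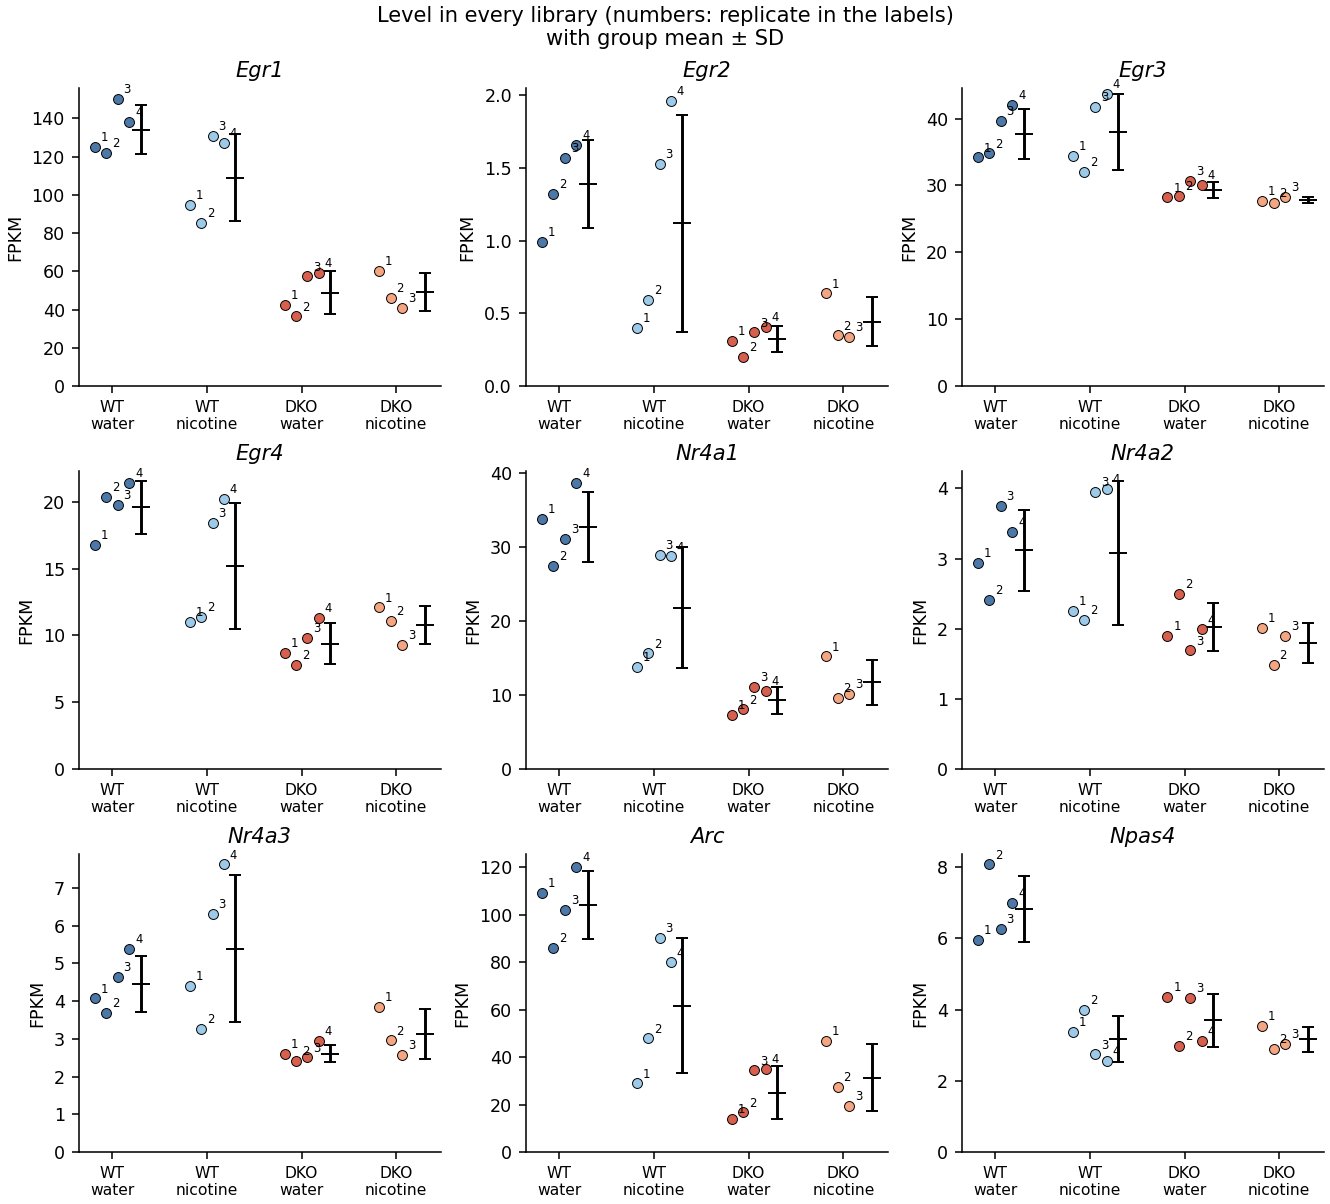
FPKM of each of the 9 genes in every library (y axis) by group (x axis), numbered by replicate, with the group mean and SD as bars. DKO water points lie below all WT water points in every panel but that of Nr4a2, and the WT nicotine points of 8 genes split into a lower and a higher pair.

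Egr1, which binds GC-rich sites and is widely used as a marker of recently active neurons, was the most abundant of the 9 in every group. It was at 125, 122, 150 and 138 FPKM in WT water and at 42.3, 36.4, 57.3 and 59.1 in DKO water. The groups did not overlap, with 122 FPKM in the lowest WT library against 59.1 in the highest DKO library. The change was -1.46 ± 0.16 (SE, limma adjusted p = 2.23e-06). Egr4, a family member with high expression in brain, was at 16.8, 20.4, 19.8 and 21.4 FPKM in WT water and 8.67, 7.77, 9.82 and 11.3 in DKO water, again without overlap (-0.99 ± 0.16 SE, limma adjusted p = 0.000113). Egr3, a related factor with parts in memory and in muscle spindle development, was at 34.2, 34.8, 39.7 and 42.0 FPKM in WT water. In DKO water it was at 28.2, 28.4, 30.7 and 30.1. Its change of -0.35 ± 0.08 (SE, limma adjusted p = 0.00334) was the smallest of the 9, yet the groups did not overlap. Egr2, also known for its part in myelination, was the least abundant, at 0.99, 1.32, 1.57 and 1.66 FPKM in WT water (177 to 289 reads) and 0.31, 0.202, 0.369 and 0.407 in DKO water (35 to 65 reads). The mean in DKO was 23.2% of that in WT, without overlap. On the log2(FPKM + 1) scale this was -0.85 ± 0.18 (SE, limma adjusted p = 0.00158), and -1.82 with a pseudocount of 0.1 or -2.12 with limma voom on recovered reads (adjusted p from 3.24e-05 to 0.00626 over the alternatives). Egr2 overlaps a non-coding gene, and the sources used here do not say whether reads were counted by strand.

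Nr4a1, a nuclear receptor that acts without a known ligand and is induced by activity and stress, was at 33.8, 27.4, 31.1 and 38.6 FPKM in WT water. In DKO water it was at 7.34, 8.05, 11.1 and 10.6. No DKO library came near the lowest WT library, and the change was -1.72 ± 0.21 (SE, limma adjusted p = 6.76e-06). Nr4a3, a close relative that binds the same response element, was at 4.07, 3.68, 4.65 and 5.38 FPKM in WT water and 2.6, 2.41, 2.51 and 2.94 in DKO water, without overlap (-0.58 ± 0.17 SE, limma adjusted p = 0.0104). Nr4a2, needed for dopamine neurons and also induced in cortex, was at 2.94, 2.41, 3.75 and 3.38 FPKM in WT water and 1.9, 2.5, 1.69 and 1.99 in DKO water. The groups overlapped through WT replicate 2 and DKO replicate 2. The change was -0.44 ± 0.15 (SE, limma adjusted p = 0.0258), and the call was lost without WT water replicate 3 or 4 or DKO water replicate 1, 3 or 4 (limma adjusted p from 0.05 to 0.0837).

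Arc had the largest change of the 9 on the log2(FPKM + 1) scale, while by the ratio of means Egr2 was slightly lower (23.2% of WT, against 24.0% for Arc), and with limma voom Arc was at -2.17 and Egr2 at -2.12. Arc was at 109, 85.9, 102 and 120 FPKM in WT water and at 14.1, 16.7, 34.4 and 35.0 in DKO water. The groups did not overlap, and within DKO water replicates 1 and 2 were lower than replicates 3 and 4. The change was -2.11 ± 0.34 (SE, limma adjusted p = 0.000123). Arc stood above Egr3 in every WT water library, but in DKO water it stood above Egr3 in replicates 3 and 4 and below it in replicates 1 and 2. Npas4 was at 5.96, 8.07, 6.27 and 6.98 FPKM in WT water and 4.35, 2.97, 4.33 and 3.13 in DKO water. All DKO libraries were below all WT libraries, with a change of -0.74 ± 0.12 (SE, limma adjusted p = 0.000123).

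Markers of other cells moved with genotype. Beside the 8 of 14 excitatory neuron markers that were lower in DKO water, 9 of 10 inhibitory, 10 of 10 astrocyte and 10 of 10 microglial markers were higher (12.4% of all genes were called lower and 25.5% higher). So were 6 of 10 oligodendrocyte and 6 of 12 endothelial and mural markers. Of oligodendrocyte precursor markers 2 of 7 were higher, which is near the share of all genes. Striatal markers, which depend on the dissection, were higher for 6 of 10, with sums of 242 to 416 FPKM in DKO water and 169 to 243 in WT water, and their part in the result was not tested. In bulk tissue fewer cells of a type and less RNA per cell cannot be told apart. With values taken relative to the excitatory markers, an alternative added after seeing the data, 6 of the 9 genes were still called lower, with Arc at -1.84, Nr4a1 at -1.45, Egr1 at -1.19, Egr4 at -0.72, Egr2 at -0.57 and Npas4 at -0.47. In this setting 241 of all 12728 genes were called lower and 10851 higher, with a median change of 0.32. Egr3 at -0.07, Nr4a2 at -0.17 and Nr4a3 at -0.31 lost the call (limma adjusted p = 0.394, 0.281 and 0.0758). The markers behind this setting did not move alike, from Lamp5 at -0.93 to Bcl11b at 0.22, and other choices of marker were not tested. Clock genes, whose level follows the hour of collection, were also lower in DKO water, 11 of 16 with sums of 345 to 364 FPKM against 424 to 466 in WT water. The hour of collection was not given, and its part in the result was not tested.

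The same contrast among mice on nicotine asks how the knockout differs from WT when both drank nicotine. Of the 9 genes, 5 were called lower in DKO (11.0% of all genes were): Egr1, Egr3, Nr4a1, Nr4a2 and Nr4a3. The median change of the 9 was -0.51, beside 0.06 for all genes. Egr1, Egr3 and Nr4a2 had no overlap between libraries, as did 11.8% of all genes in this direction. Egr1 was at 94.9, 85.2, 131 and 127 FPKM in WT nicotine and at 60.4, 46.3 and 40.8 in DKO nicotine. Every WT library was higher, with a change of -1.13 ± 0.17 (SE, limma adjusted p = 8.93e-05). Egr3 was at 34.4, 32.0, 41.7 and 43.7 FPKM in WT nicotine and 27.7, 27.4 and 28.3 in DKO nicotine (-0.42 ± 0.09 SE, limma adjusted p = 0.00149). Nr4a1 was at 13.8, 15.6, 28.9 and 28.7 FPKM in WT nicotine and 15.2, 9.59 and 10.2 in DKO nicotine. The highest DKO library stood between the 2 lowest WT libraries, and the change was -0.80 ± 0.23 (SE, limma adjusted p = 0.0113).

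Nr4a2 was at 2.25, 2.13, 3.95 and 3.99 FPKM in WT nicotine and 2.01, 1.48 and 1.9 in DKO nicotine, so that WT replicates 1 and 2 lay just above the DKO libraries (-0.51 ± 0.16 SE, limma adjusted p = 0.02). Nr4a3 was at 4.4, 3.26, 6.3 and 7.62 FPKM in WT nicotine and 3.84, 2.96 and 2.57 in DKO nicotine (-0.59 ± 0.18 SE, limma adjusted p = 0.0166), with WT replicate 2 inside the DKO range. Arc missed the threshold at -0.91 (95% interval -1.69 to -0.14, limma adjusted p = 0.0633), as did Egr2 at -0.49 (-0.91 to -0.08, limma adjusted p = 0.0618) and Egr4 at -0.42 (-0.78 to -0.06, limma adjusted p = 0.0678). Arc was called after median-of-ratios rescaling and with limma voom, Egr4 after median-of-ratios rescaling, and without WT nicotine replicate 1 all 3 were, as were Egr2 and Egr4 without replicate 2 and Arc without DKO nicotine replicate 1. Npas4 did not differ detectably: 3.36, 3.99, 2.74 and 2.56 FPKM in WT nicotine and 3.54, 2.9 and 3.04 in DKO nicotine, a change of 0.01 (95% interval -0.27 to 0.28, limma adjusted p = 0.97). The number of calls in this contrast depended on single libraries: 8 without WT nicotine replicate 1, and 3 without WT nicotine replicate 4 or DKO nicotine replicate 3. Of all 12728 genes, 1405 were called lower with every library in the fit. This number was 1298 without WT nicotine replicate 1, 1191 without WT nicotine replicate 4 and 1069 without DKO nicotine replicate 3. Nr4a2 lost its call without WT nicotine replicate 3 or 4 or DKO nicotine replicate 2, Nr4a3 without WT nicotine replicate 4 or DKO nicotine replicate 3, and Nr4a1 without DKO nicotine replicate 3 (limma adjusted p from 0.0506 to 0.0834). With values relative to the excitatory markers, 2 calls held, Egr1 at -0.89 and Nr4a1 at -0.56. In this setting 272 of all 12728 genes were called lower and 10194 higher. Y-linked expression was under 1 FPKM in all 4 WT nicotine and 1 of 3 DKO nicotine libraries, and its part in the result was not tested. Of 16 clock genes 8 were called lower in DKO, beside 11.0% of all genes. Their sums were 379 to 422 FPKM in DKO nicotine and 472 to 491 in WT nicotine, and their part was not tested either.

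**Figure D3:**
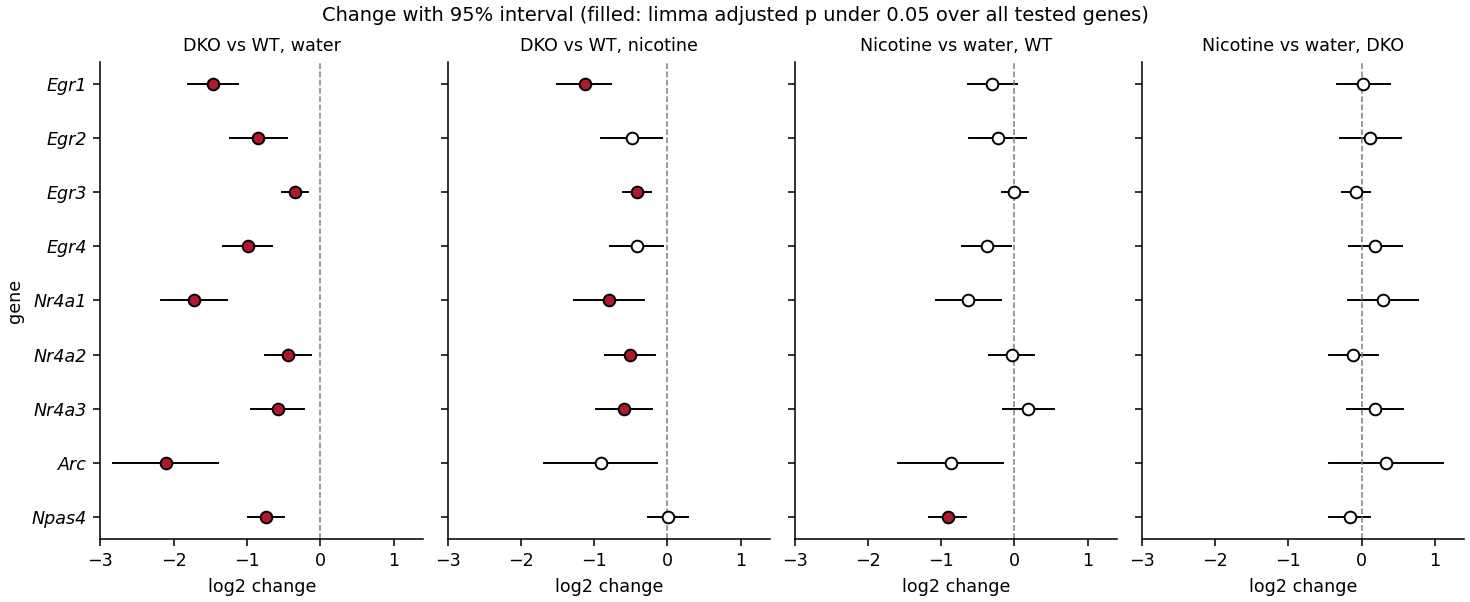
Log2 change with its 95% interval (x axis, log2(FPKM + 1) scale) of each of the 9 genes (y axis) for genotype within each drink and for nicotine within each genotype (4 panels), filled where the limma adjusted p was under 0.05. In the water contrast of genotypes all 9 intervals lie below 0, and in the nicotine contrast of knockout mice all 9 cross it.

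Nicotine in WT mice was examined against WT on water. Npas4 alone of the 9 was called: it was at 3.36, 3.99, 2.74 and 2.56 FPKM with nicotine, against 5.96, 8.07, 6.27 and 6.98 without. Every nicotine library lay below every water library, and the nicotine mean was 46.4% of the water mean. The change was -0.91 ± 0.12 (SE, limma adjusted p = 0.00266), in a comparison where 0.0786% of all genes, 10 of 12728, were called lower and 2.66% had no overlap in this direction. All 4 Y-linked genes were among the 10 called lower. The call held without any 1 of the 8 libraries (-1.01 to -0.84, limma adjusted p from 0.0014 to 0.0191) and under all 9 alternatives (-1.12 to -0.88, limma adjusted p from 0.000203 to 0.0183). WT nicotine is also the group in which no library had Y-linked genes above 0.144 FPKM, while all WT water libraries had 28.9 or more, so nicotine and sex cannot be told apart here. Clock genes summed to 472 to 491 FPKM with nicotine and 424 to 466 with water, and their part in the result was not tested.

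The other 8 genes did not pass in WT. Nr4a1 was at -0.63 (95% interval -1.07 to -0.19, limma adjusted p = 0.395), Arc at -0.87 (-1.59 to -0.15, limma adjusted p = 0.493) and Egr4 at -0.38 (-0.72 to -0.05, limma adjusted p = 0.516). These 3 and Npas4 had an unadjusted p under 0.05, as did 1107 genes in all. Egr1 was at -0.30, Egr2 at -0.23, Egr3 at 0.00, Nr4a2 at -0.04 and Nr4a3 at 0.19. The WT nicotine libraries fell into a lower and a higher pair. In 8 of the 9 genes replicates 1 and 2 lay below replicates 3 and 4, and Npas4 was the exception. Arc was at 28.9 and 47.9 FPKM in replicates 1 and 2 and 90.1 and 79.9 in replicates 3 and 4, a range of 3.12 times within the group against 1.4 times in WT water. Egr2 ranged by 4.92 times, from 0.399 and 0.59 to 1.53 and 1.96 FPKM. Npas4 ran the other way, 3.36 and 3.99 FPKM against 2.74 and 2.56. Excitatory marker sums were 2660 and 2810 FPKM in replicates 1 and 2 against 2630 and 2620 in replicates 3 and 4. Striatal marker sums moved with these 8 genes in this group, at 173 and 207 FPKM in replicates 1 and 2 and 286 and 309 in replicates 3 and 4. The same was not seen in WT water, where replicate 4 had the lowest sum (169) and the highest mean z-score of the 9 genes (1.3). In DKO water replicate 2 had the highest sum (416) and the lowest score (-1.08). The part of the striatal markers was not tested.

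**Figure D4:**
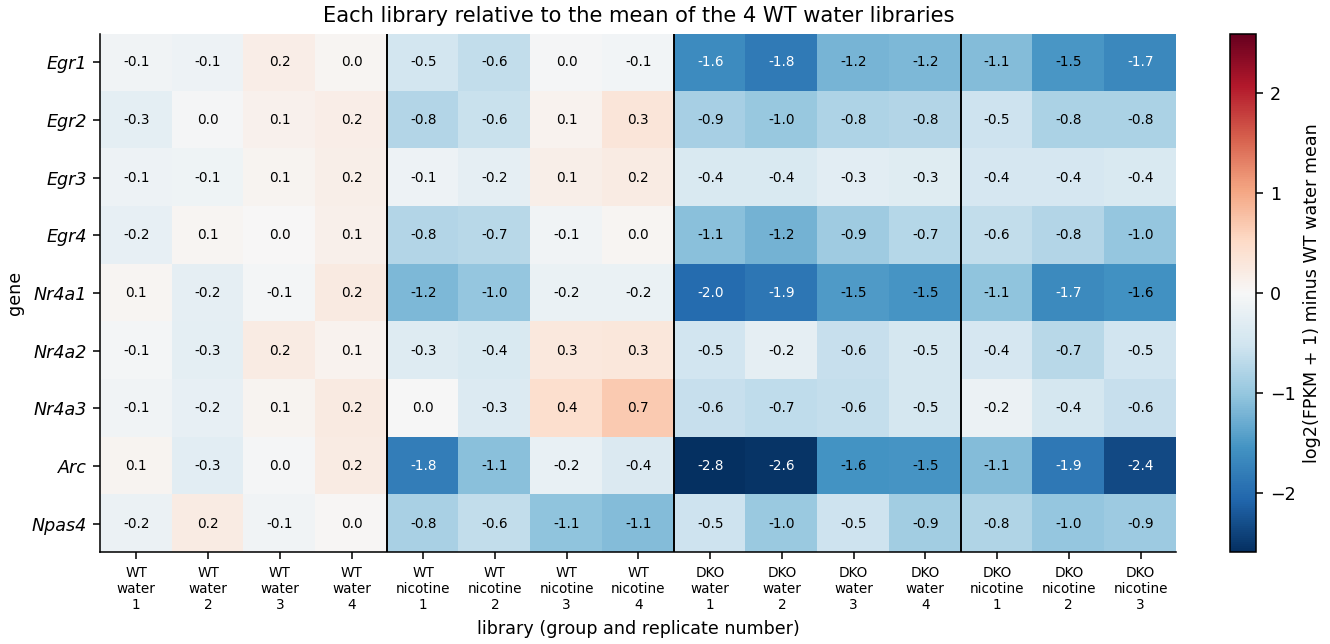
Level relative to the mean of the WT water libraries (colour and printed value, difference in log2(FPKM + 1)) of each of the 9 genes (rows) in every library (columns), by group. WT nicotine replicates 1 and 2 are lower than replicates 3 and 4 in every row but Npas4, which is below the WT water mean in all 4.

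Nicotine in DKO mice changed none of the 9 detectably. In limma 0 of 9 were called (0.157% of all genes were), 0 had an unadjusted p under 0.05, against 1765 genes in all, and limma voom on recovered reads also called 0. Arc was at 14.1, 16.7, 34.4 and 35.0 FPKM in DKO water and 46.9, 27.6 and 19.5 in DKO nicotine. The groups overlapped, and the change of 0.33 had a 95% interval from -0.45 to 1.11. Nr4a1 was at 0.29 (-0.18 to 0.77), Egr4 at 0.19 (-0.17 to 0.55) and Nr4a3 at 0.18 (-0.20 to 0.56). Egr2 was at 0.12, Egr1 at 0.02, Egr3 at -0.07, Nr4a2 at -0.11 and Npas4 at -0.16 (-0.44 to 0.11). DKO nicotine replicate 1 was the highest of its group for all 9 genes but Egr3, for which replicate 3 was. These intervals leave room for changes in either direction. Y-linked sums were 24.3 to 33.0 FPKM in DKO water and 35.9, 0.233 and 36.6 in DKO nicotine. Of 16 clock genes 5 were called higher with nicotine, beside 13 of 12728 genes in all. Clock sums were 379 to 422 FPKM in DKO nicotine and 345 to 364 in DKO water. The part of sex and of clock genes was not tested.

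DKO mice on nicotine were also set against WT mice on water, a comparison that shares its libraries with those above. There 8 of 9 were called lower, beside 11.8% of all genes, and 8 had no overlap, beside 13.0%. Egr1 was at -1.44 ± 0.17 (SE, limma adjusted p = 7.14e-06), Arc at -1.78 ± 0.37 (SE, limma adjusted p = 0.0012) and Npas4 at -0.91 ± 0.13 (SE, limma adjusted p = 4.16e-05). Nr4a3 was the gene not called, at -0.40 (95% interval -0.78 to -0.02, limma adjusted p = 0.0877). Nr4a2 lost its call without DKO nicotine replicate 2 (limma adjusted p = 0.0559). With values relative to the excitatory markers 6 of the 8 calls held, and Egr3 at -0.15 and Nr4a2 at -0.28 lost theirs (limma adjusted p = 0.121 and 0.11). In this setting 211 of all 12728 genes were called lower and 10769 higher. The change from water to nicotine was compared between the genotypes as an interaction, DKO minus WT. None of the 9 was called (0.0157% of all genes were), and 4 had an unadjusted p under 0.05, as did 878 genes in all. For Npas4 the interaction was 0.75 (95% interval 0.38 to 1.12, limma adjusted p = 0.481), for Nr4a1 0.92 (0.27 to 1.58, limma adjusted p = 0.657), for Arc 1.2 (0.14 to 2.26, limma adjusted p = 0.679) and for Egr4 0.57 (0.08 to 1.07, limma adjusted p = 0.679). The change of Npas4 from water to nicotine, called in WT and not in DKO, was not shown to differ between them. Y-linked sums were 28.9 FPKM or more in WT water, at most 0.144 in WT nicotine and 35.9, 0.233 and 36.6 in DKO nicotine. Nicotine and sex therefore cannot be told apart in the WT part of the interaction. Limma voom also called none in the interaction.

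Levels of 8 of the 9 genes varied together between libraries, with Npas4 apart. Over the 15 libraries the 28 pairs without Npas4 had Pearson correlations of log2(FPKM + 1) from 0.73 to 0.97 (median 0.89). With the group means subtracted they were from 0.44 to 0.94 (median 0.8). Npas4 correlated with the other 8 at 0.04 to 0.53 (median 0.445), and at -0.69 to -0.19 (median -0.35) with group means subtracted. WT nicotine, where Npas4 ran opposite to the other 8, is part of these values, and they were not computed without that group. In DKO nicotine, by contrast, replicate 1 was the highest for Npas4 (3.54 FPKM) as for all the others but Egr3. These are descriptions, as all genes read in a library share its dissection and depth. Ranked by mean z-score, WT water libraries were at 0.72 to 1.30, WT nicotine at -0.22, -0.19, 0.94 and 1.09, DKO nicotine at -0.35, -0.91 and -0.96 and DKO water at -1.08 to -0.61. The genes outside the set whose levels were most like that score were Dusp6 (0.968), Fos (0.967), Cdc42ep3 (0.963), Sstr2 (0.963), Junb (0.953) and Dcun1d4 (0.936), and with group means subtracted Dusp6 (0.946), Junb (0.936), Fosl2 (0.931), Ddit4 (0.925), Fos (0.917) and Sik1 (0.908).

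Other genes of the pathway were read in the same fit. Of 22 further rapid-response genes tested, 15 were lower, 2 higher and 5 not called in DKO water against WT water (median -0.54, beside 0.05 for all genes), where 12.4% of all genes were lower and 25.5% higher. Dusp6, a phosphatase of ERK, was lower at 16.4 ± 1.62 FPKM in DKO against 30.1 ± 2.02 in WT (SD, n = 4 each; limma adjusted p = 8.63e-06). The 2 that rose were Jun, from 13.2 ± 0.436 to 30.0 ± 0.841 FPKM (SD, n = 4 each), and Atf3, a stress-induced factor, from 0.44 ± 0.07 to 2.56 ± 0.269 (SD, n = 4 each), so this list did not move one way. Of 17 genes listed as late effectors, 10 were higher and 3 lower, and the timing of their induction was not tested. The 3 with the smallest p all rose. They were Nptx2, which clusters AMPA receptors, from 20.0 ± 0.598 to 55.3 ± 1.74 FPKM (SD, n = 4 each), and Rgs2, a regulator of G-protein signalling. The third was Scg2, a secretogranin, which rose from 46.5 to 77.3 FPKM in the mean. Of 28 genes upstream, 8 were lower and 5 higher. The calcium-dependent kinases Camk4, from 25.9 ± 1.69 to 15.6 ± 0.549 FPKM, and Camkk2, from 44.1 ± 1.89 to 25.9 ± 1.11 FPKM, fell (SD, n = 4 each), as did the calcineurin subunit Ppp3ca, from 294 to 226 FPKM in the mean. Of 10 partners, Dnm2, a dynamin that binds Arc, was higher and Nab2, a co-repressor of Egr proteins, lower (17.8 ± 1.47 to 14.9 ± 1.21 FPKM, SD, n = 4 each; limma adjusted p = 0.0457).

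**Figure D5:**
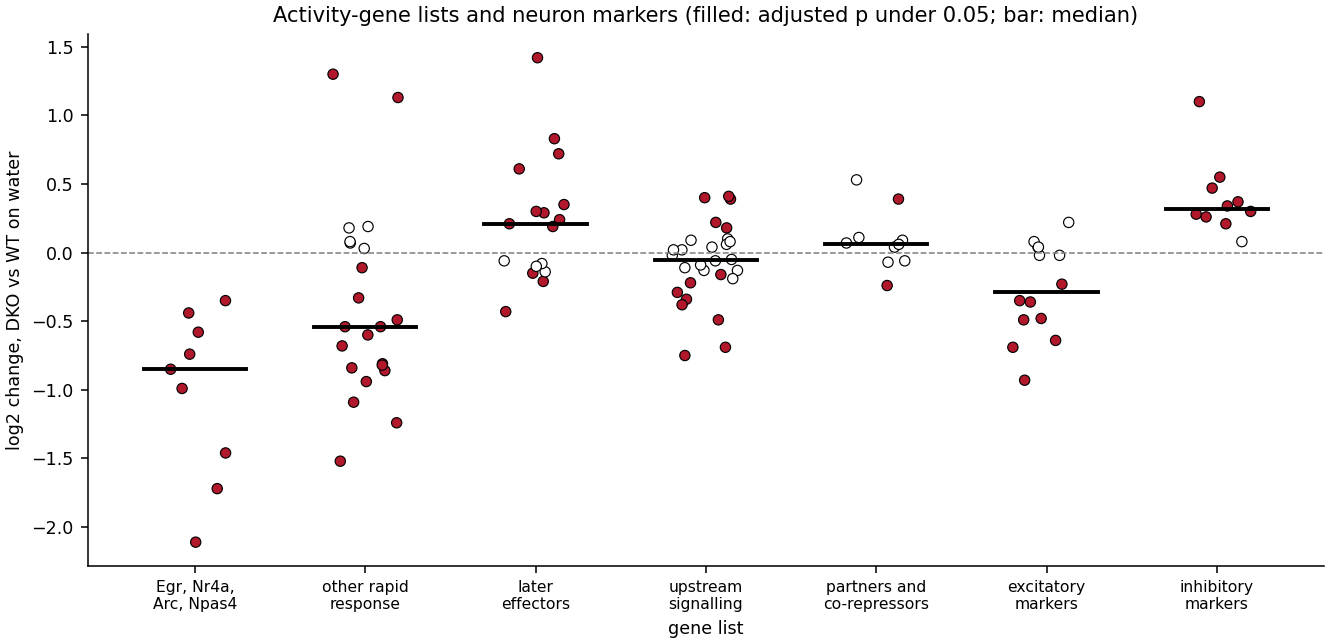
Log2 change between DKO water and WT water (y axis, log2(FPKM + 1) scale) of the genes in each list (x axis), with one point per gene, filled where called, and a bar at the list median. The 9 genes lie at or below -0.35, while the late effectors spread to both sides of 0.

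Among mice on nicotine, 5 of 22 rapid-response genes were lower and 4 higher in DKO, and 10 of 28 upstream genes lower and 8 higher (11.0% of all genes were lower and 24.6% higher). Of 17 late effectors 8 were higher and 3 lower, and of 10 partners 3 were higher. Nicotine against water called 1 of 22 rapid-response genes higher in WT (0.0943% of all genes were) and none in DKO. Maff, Amigo3 and Mmp9 were below the level for testing.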

How the data were processed

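Libraries were made with the TruSeq Stranded mRNA kit from TRIzol-extracted total RNA, per the labels' protocols. Per the submitters' processing notes the build was GRCm38.p6, and no source used here names the aligner or counter. The authors deposited 1 table of FPKM values per library. These values were whole multiples of 1 read for 100% of tested genes within 0.02 reads, which gave the reads per library (16334904 to 19469215). Names of 27 genes that had turned into dates were restored from their gene numbers. Mitochondrial genes were not analysed here.

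Groups follow the labels. The 12728 genes that reached 1 FPKM in 3 libraries or more were tested on log2(FPKM + 1) with limma 3.58.1 in R 4.3.3 (intensity trend, all 15 libraries in 1 fit, a term per group, no block) and Benjamini-Hochberg adjustment over all genes within a comparison. Scripts were tested on simulated data. The named genes of a list were its 3 with the smallest p between DKO and WT on water, and the excitatory neuron markers given by name were chosen after their values were seen. The members and lists were chosen with earlier results of these data known. Promoter windows came from RefSeq and exons from GENCODE. Alternatives were another pseudocount (0.1), no filter, a filter at 5 FPKM, median-of-ratios rescaling, no trend, only the groups compared, a replicate block, leaving out each library, and, added after seeing the data, limma voom on recovered reads and values relative to excitatory neuron markers. Figures were drawn with matplotlib 3.10.9 in Python 3.11.15.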

Additional observations from a re-analysis of the deposited data

How the results depend on the processing

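Counts of genes called kept within 1.5 times of the reported number for 5 of the 6 comparisons. For DKO against WT on nicotine the 5 calls became 3 with only the groups compared, 2 relative to excitatory neuron markers and 3 to 8 when a library was left out, and the cause was not tested. Over all genes, 1405 were called lower in the reported fit, 1171 with only the groups compared and 1069 to 1355 without a library. For DKO against WT on water the range was 8 to 9 without a library and 6 to 9 over the alternatives, of which the filter at 5 FPKM tested fewer genes. There 1584 of all genes were called lower in the reported fit, and 1359 to 1515 without a library. Changes near 0 that were not called crossed it. Npas4 for DKO against WT on nicotine was -0.04 after median-of-ratios rescaling, -0.03 with the replicate block and -0.06 to 0.1 without a library. Nr4a3 in the interaction was 0.02 with a pseudocount of 0.1, 0.02 with voom, 0.09 with the replicate block and -0.19 to 0.15 without a library. Without a library, Egr3 (-0.07 to 0.08) and Nr4a2 (-0.15 to 0.08) for nicotine in WT, Egr1 for nicotine in DKO (-0.13 to 0.14) and Nr4a2 in the interaction (-0.18 to 0.04) did so too. Replicate numbers did not pair libraries (same-number correlations -0.214 to 0.165, 2 of 21 above 0.1), and the block left the counts at 9, 5, 1, 0, 8 and 0. Nicotine against water in DKO called 20 genes in all, 0 with only the groups compared and 71 higher and 16 lower with voom. A count model was planned but not run, since the values are FPKM.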
